A study of Mus musculus with 40 samples.

Results

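The genes described here are 37 mouse genes of cholesterol and fatty acid synthesis, chosen by pathway membership. They fall into 3 groups: 18 enzymes of sterol synthesis, 6 genes of sterol sensing, and 13 enzymes of fatty acid synthesis. Of the 37, 36 were read by a named probe set among 18194 genes on the arrays of sorted T cells, and 33 among 17097 genes on the arrays of the ligand experiment. Acat2 was named on neither array type, and Pmvk, Srebf1 and Scd2 were named only on the arrays of sorted T cells.

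The arrays measured RNA in CD4 T cells of C57Bl/6 mice. In the first experiment, cells of Foxp3GFP reporter mice were sorted and kept for 48 h in medium with 10% serum. Activated Treg (3 arrays; CD45RBlow, GFP+, stimulated through CD3 and CD28), resting Treg (3 arrays; the same gate, unstimulated) and resting conventional T cells (2 arrays; CD45RBhi, GFP-, unstimulated) were compared. Treg are regulatory T cells, the suppressive lineage defined by Foxp3. Because the gates differed in both CD45RB and GFP, lineage and prior activation state cannot be told apart in comparisons with the conventional cells.

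In the second experiment, CD45RBlow Foxp3-YFP+ Treg from spleen and lymph nodes received plate-bound antibody to CD3 (1 µg/mL), soluble antibody to CD28 (2 µg/mL) and IL-2 (100 U/mL), together with immobilised Sema4a-Ig or mouse IgG1 (10 µg/mL). Sema4a-Ig is an Fc fusion of semaphorin-4a, a ligand that the series title links to neuropilin-1. WT cells carried Foxp3-YFPiCre alone. KO cells carried Nrp fl/fl x Foxp3-YFP-iCre, so that the floxed gene is deleted only where the Foxp3 locus drives Cre, and both genotypes carried the Cre. Each genotype gave 8 pairs of 1 Sema4a-Ig and 1 IgG1 array. Both treatments included the full stimulation, so there was no unstimulated group here. For 1 WT Sema4a-Ig array (replicate 2) the title gives WT and the genotype label gives KO, and it was grouped by title.

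Mean log2 signal was 6.01 in every array of the first experiment and 4.78 to 4.80 in the second. Mean Foxp3 signal in the sorted cells was 10.81 in activated Treg, 10.44 in resting Treg and 4.0 in conventional T cells, with SDs of 0.09, 0.14 and 0.07. In the ligand experiment the group means of Foxp3 lay between 3.48 and 3.61, below the brightest of 23 nonspecific control probe sets (3.95), so this probe set did not check the sort. The sorted arrays with title codes under 180 (activated Treg 1 and 2, resting Treg 1) had an Actb 3' minus 5' signal of 5.87, 6.17 and 5.90, and the other 5 had 1.24 to 2.67. Of these 5 the 2 conventional arrays had the lowest values, 1.24 and 1.54. In the ligand experiment replicate 3 of both genotypes had the widest spread of differences over all genes. Its SD was 0.498 in WT and 0.466 in KO, against 0.209 to 0.443 in the other pairs. The WT and KO title codes of replicate 3 are neighbours, as are those of replicates 4 to 8. Deposited ligand values had the mean of each pair set equal at every probe set (within 6e-05), so only the Sema4a-Ig minus IgG1 difference within a pair carries information and genotypes cannot be compared in level. In bulk RNA, fewer cells of a type and less RNA per cell cannot be told apart.

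Cells make cholesterol from acetyl-CoA through the mevalonate pathway, which leads by way of isopentenyl diphosphate, farnesyl diphosphate and squalene to lanosterol and then to cholesterol. When membrane sterol is low, Scap escorts the SREBP-2 protein, encoded by Srebf2, from the endoplasmic reticulum to the Golgi, where it is cut, and the released fragment switches on most genes of the pathway. Insig1 and Insig2 hold Scap back when sterol is plentiful. Fatty acid synthesis starts from the same acetyl-CoA and is driven by SREBP-1, encoded by Srebf1, together with other factors. Activated T cells raise both pathways to build membrane, and mevalonate products are required for Treg function.

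The promoters of the sterol genes share a sequence feature that the choice of genes did not use. RefSeq windows (GRCm38.p6, 250 bases before to 50 after the start of transcription) were given for 15 of the 18 sterol synthesis genes. The motif CCAAT, which NF-Y binds next to SREBP sites, was found on either strand in 14 of these 15 (93.3%), and in 41.1% of 27025 genes. At least 2 copies were in 9 of 15 (60%), against 13.3% of all genes. Among sensing genes 4 of 5 held it, and among fatty acid synthesis genes 7 of 10 (Acaca, Elovl6 and Fads2 did not). Outside the members, it was in 4 of 8 genes of the isoprenoid branches (50%), in 6 of 12 of sterol export, esterification and oxysterol response (50%) and in 2 of 10 of fatty acid oxidation (20%). The motif TCACNCCAC, a form of the sterol regulatory element, was in Hmgcs1 alone among the members and in 1.44% of all genes. A match is a description of letters in the window and not a measured binding site.

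The 4 windows below are shown because Idi1 and Cyp51 had lower signal with Sema4a-Ig in all 8 WT pairs, Hmgcs1 holds both motifs, and Elovl6 had higher signal in all 8 WT pairs and holds neither. Each runs 5′ to 3′ on the gene's strand, with CCAAT or its reverse complement ATTGG, and TCACNCCAC, in capitals.
Idi1, chr13:8885356-8885655, plus strand: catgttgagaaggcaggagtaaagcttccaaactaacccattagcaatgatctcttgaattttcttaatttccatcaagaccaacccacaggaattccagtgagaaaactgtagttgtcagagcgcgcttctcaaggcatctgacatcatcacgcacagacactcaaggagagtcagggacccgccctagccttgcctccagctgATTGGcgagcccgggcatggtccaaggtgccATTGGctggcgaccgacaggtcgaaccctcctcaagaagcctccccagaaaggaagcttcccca
Cyp51, chr5:4104648-4104947, minus strand: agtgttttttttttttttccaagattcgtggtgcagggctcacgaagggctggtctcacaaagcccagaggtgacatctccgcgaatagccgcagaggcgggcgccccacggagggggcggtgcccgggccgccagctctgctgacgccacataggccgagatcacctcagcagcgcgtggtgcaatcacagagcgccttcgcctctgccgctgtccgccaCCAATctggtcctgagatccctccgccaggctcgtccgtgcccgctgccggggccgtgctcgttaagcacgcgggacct
Hmgcs1, chr13:119690101-119690400, plus strand: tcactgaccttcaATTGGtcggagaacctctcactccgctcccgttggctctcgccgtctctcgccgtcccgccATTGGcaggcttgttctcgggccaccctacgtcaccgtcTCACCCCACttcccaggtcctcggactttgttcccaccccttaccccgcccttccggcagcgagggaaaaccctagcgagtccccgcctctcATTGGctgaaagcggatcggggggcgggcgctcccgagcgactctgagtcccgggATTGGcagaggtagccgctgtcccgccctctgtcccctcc
Elovl6, chr3:129532136-129532435, plus strand: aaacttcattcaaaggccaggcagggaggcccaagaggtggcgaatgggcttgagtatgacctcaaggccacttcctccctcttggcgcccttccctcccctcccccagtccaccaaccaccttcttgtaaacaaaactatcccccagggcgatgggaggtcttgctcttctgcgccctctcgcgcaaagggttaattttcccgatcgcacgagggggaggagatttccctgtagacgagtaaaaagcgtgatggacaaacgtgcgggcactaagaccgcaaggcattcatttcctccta
In Idi1 the 2 copies start 45 and 14 bases before the start of transcription, both in reverse. In Cyp51 the single copy starts 29 bases before it. Hmgcs1 holds 4 copies, and its TCACNCCAC match starts 137 bases before the start. Its mean Sema4a-Ig difference in WT was 0.04, read by a probe set of low signal. Acaca, also lower in all 8 WT pairs, holds no CCAAT. Whether the motif goes with the direction of the difference was not tested.

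The first comparison asks how Treg and conventional cells differ without stimulation. Resting Treg had more RNA of Scd2, a stearoyl-CoA desaturase that places the double bond in oleic acid, and of Fdft1, squalene synthase, which commits farnesyl diphosphate to sterols. These were the 2 of 36 members that passed (5.56%), beside 5.51% of all genes (3.86% higher and 1.65% lower). Each was read by its brightest probe set, and with the mean of probe sets neither passed, nor did any other member. No member fell. At an unadjusted limma p under 0.05 stood 7 of 36 (19.4%), beside 17.9% of all genes. Most members (32 of 36) had above-median signal, so shares over all genes are not matched for signal. Among genes of above-median signal 2 of 32 members passed, and 926 genes in all, against 1003 without that filter. The members' share of calls in that set was below that of all genes. The median difference was 0.03 in sterol synthesis, 0.20 in sterol sensing and 0.07 in fatty acid synthesis, against 0.01 over all genes. With any 1 array left out these medians ran from -0.15 to 0.10, 0.08 to 0.38 (without resting Treg 3 and without conventional array 1) and 0.01 to 0.09. The ranges over genes were -0.74 (Mvd) to 1.62, -0.61 (Stard4) to 0.96 and -1.32 (Elovl6) to 1.84. All differences are on the log2 scale, with standard errors (±) from limma and Benjamini-Hochberg adjustment over all genes.

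Scd2 signal was 6.56 and 7.04 in the conventional arrays, 8.97, 8.35 and 8.61 in resting Treg, and 9.94, 10.52 and 10.32 in activated Treg. The groups formed 3 separate steps with no overlap. Resting Treg exceeded conventional T cells by 1.84 ± 0.26 (limma adjusted p = 0.00539). Activated Treg exceeded conventional T cells by 3.46 ± 0.26 (limma adjusted p = 0.000156) and resting Treg by 1.62 ± 0.23 (limma adjusted p = 0.0272).

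The step from resting to activated Treg was the less stable of the Scd2 calls. It missed the threshold when any 1 of 6 arrays was left out: each activated Treg array, resting Treg 2, or either conventional array, with adjusted p between 0.062 and 0.0964 in limma and a difference between 1.47 and 1.78 over all 8 such fits. The call against conventional cells for activated Treg held in all 8 such fits (3.22 to 3.70), and that for resting Treg in 7 of 8, being lost without conventional array 1 (1.6, limma adjusted p = 0.0904). Among arrays with title codes of 180 or over, the differences were 1.68 (resting Treg against conventional), 3.51 (activated against conventional) and 1.84 (activated against resting, limma adjusted p = 0.158), and under 180 activated exceeded resting by 1.27. The other 2 probe sets of Scd2 had weaker signal (means 4.78 and 3.86) and smaller differences of the same sign, 0.70 and 0.17 between activated Treg and conventional cells. With the mean of its 3 probe sets the difference from conventional cells in resting Treg was 0.71 (limma adjusted p = 0.0653), and activated minus resting Treg was 0.73 (limma adjusted p = 0.0998).

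Fdft1 signal was 8.92 and 8.97 in conventional T cells, 10.67, 10.09 and 10.93 in resting Treg, and 10.54, 10.46 and 10.13 in activated Treg. Every Treg array lay above both conventional arrays, and resting and activated Treg overlapped. The difference from conventional cells was 1.62 ± 0.26 in resting Treg (limma adjusted p = 0.00955) and 1.43 ± 0.26 in activated Treg (limma adjusted p = 0.0107). This rests on 1 of 4 Fdft1 probe sets, of the kind whose probes may also match other transcripts. Its second brightest probe set differed by 0.02 and -0.47, and the mean of all 4 differed by 0.50 and 0.28 and passed in neither comparison (limma adjusted p = 0.186 and 0.451). Both calls were lost without either conventional array (limma adjusted p from 0.0897 to 0.119).

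**Figure D1:**
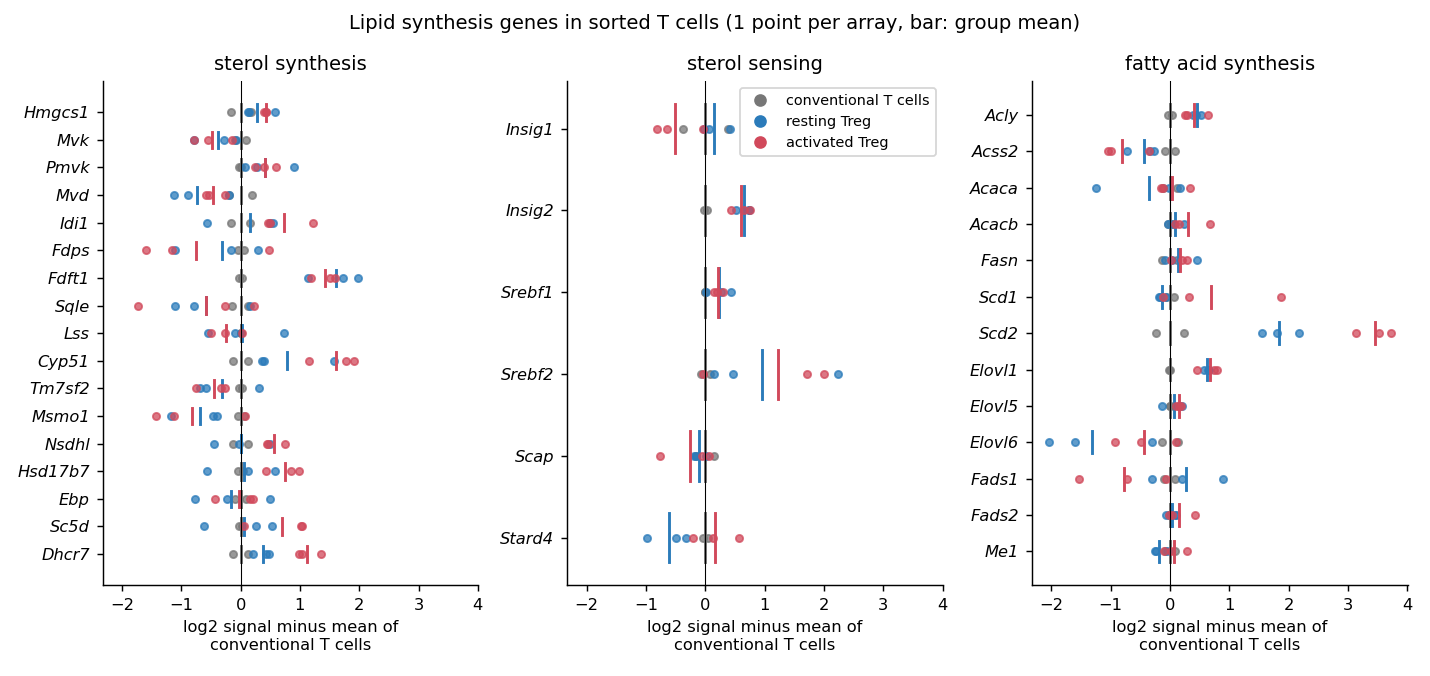
Log2 signal of the 36 measured lipid synthesis genes in the 8 arrays of sorted T cells, as the difference from the mean of the 2 conventional T cell arrays; each point is 1 array and each bar a group mean. Scd2 stands furthest to the right, with resting Treg at 1.84 and activated Treg at 3.46 on average, while most other genes lie within about 1 of 0.

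Activated Treg were then set against resting Treg, to ask what stimulation through CD3 and CD28 changed. Scd2 was the 1 member of 36 that passed (2.78%), beside 0.742% of all genes (0.522% higher and 0.22% lower), and 7 of 36 (19.4%) had an unadjusted limma p under 0.05, beside 11.5% of all genes. In sterol synthesis 10 of 17 genes had a positive difference (median 0.14, range -0.44 to 0.83), and none passed. With any 1 array left out that median was 0.03 to 0.33. Dhcr7, which catalyses the last reduction to cholesterol, had a difference of 0.75 ± 0.17 and limma adjusted p = 0.10, and Cyp51, lanosterol demethylase, had 0.83 ± 0.35 and limma adjusted p = 0.404. In sterol sensing the largest were Stard4, a sterol transfer protein (0.77 ± 0.24, limma adjusted p = 0.238), and Insig1 (-0.66 ± 0.27, limma adjusted p = 0.398). Stard4 passed with quantile normalization (0.87), with the title code class as a block (0.97) and with the Actb signal as a covariate (0.95), with limma adjusted p of 0.043, 0.0262 and 0.0334. In fatty acid synthesis Fads1, the delta-5 desaturase, had -1.04 ± 0.41 (limma adjusted p = 0.362).

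Activated Treg also differed from resting conventional T cells, a comparison in which lineage, gate and stimulation change together. Scd2, Fdft1, Cyp51, Dhcr7 and Elovl1 were higher, 5 of 36 members (13.9%), beside 9.7% of all genes (5.93% higher and 3.77% lower). No member fell. An unadjusted limma p under 0.05 was reached by 9 of 36 (25%), beside 21.6% of all genes. The excess over all genes is not matched for signal. Among genes of above-median signal 4 of 32 members passed, and 1609 genes in all, against 1765 without that filter. The members' share of calls in that set was below that of all genes, so the excess did not hold there. This comparison shares its conventional arrays with the first and its activated arrays with the second, so the counts are not independent. With the Actb signal as a covariate Scd2 and Dhcr7 kept their calls here and Fdft1, Cyp51 and Elovl1 lost theirs. Idi1 and Insig2 passed in that fit. Medians were 0.42 in sterol synthesis, 0.19 in sensing and 0.15 in fatty acid synthesis, against 0.02 over all genes, and the lowest sterol synthesis gene was the sterol demethylase gene Msmo1 (-0.83 ± 0.43, limma adjusted p = 0.329). With any 1 array left out the medians were 0.25 to 0.43, 0.06 to 0.30 and 0.11 to 0.16, and with the mean of probe sets the sterol synthesis median was 0.08.

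Cyp51 signal was 7.01 and 7.25 in conventional T cells, 7.53, 7.49 and 8.71 in resting Treg, and 9.04, 8.28 and 8.91 in activated Treg. Activated Treg lay above conventional cells without overlap, and 1 resting array (replicate 3) lay within the activated range. The difference between activated Treg and conventional cells was 1.61 ± 0.39 (limma adjusted p = 0.037). It held in 4 of 8 fits that left out 1 array, and was lost without activated Treg 1 or 3 or either conventional array (1.47 to 1.73, limma adjusted p from 0.0707 to 0.272). A second probe set of Cyp51 differed by 1.37 in the same comparison, but by -0.78 between resting Treg and conventional cells where the first differed by 0.78 (limma adjusted p = 0.36).

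Dhcr7 signal was 7.28 and 7.54 in conventional T cells, 7.89, 7.84 and 7.62 in resting Treg, and 8.44, 8.76 and 8.40 in activated Treg. No 2 groups overlapped. Activated Treg exceeded conventional cells by 1.12 ± 0.19 (limma adjusted p = 0.00736), a call lost in 1 of 8 fits that left out an array, without conventional array 1 (0.99, limma adjusted p = 0.114). Dhcr7 is read by 1 probe set.

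Elovl1, which elongates saturated and monounsaturated very long chain fatty acids, had a signal of 10.07 and 10.09 in conventional T cells, 10.72, 10.65 and 10.74 in resting Treg, and 10.88, 10.82 and 10.54 in activated Treg. All Treg arrays were above both conventional arrays. The difference for activated Treg was 0.67 ± 0.16 (limma adjusted p = 0.0365) and for resting Treg 0.62 ± 0.16 (limma adjusted p = 0.0663). Of its 4 probe sets 1 went the other way (-1.23 in activated Treg), and the mean of all 4 differed by 0.13 (limma adjusted p = 0.808). The call was lost in 5 of 8 fits that left out an array (0.60 to 0.68, limma adjusted p from 0.0597 to 0.273): without activated Treg 1 or 2, resting Treg 2, or either conventional array.

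Among arrays with title codes of 180 or over, activated Treg is a single array. There Scd2 alone kept its call against conventional cells, and the differences of the other called members were 1.18 (Fdft1), 1.78 (Cyp51), 0.99 (Dhcr7) and 0.46 (Elovl1), with limma adjusted p between 0.0796 and 0.182. The lone sample is taken to vary like the other groups.

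Srebf2, the gene of SREBP-2, followed the title codes and not the cell groups. Its signal was 6.6 and 6.76 in conventional T cells, 8.92, 7.15 and 6.83 in resting Treg, and 8.40, 8.68 and 6.65 in activated Treg. The 3 high arrays are those with codes under 180 and the high Actb 3' minus 5' signal. Neither difference from conventional cells passed (0.96 ± 0.72 in resting Treg, limma adjusted p = 0.578, and 1.23 ± 0.72 in activated Treg, limma adjusted p = 0.40). With the title code class as a block the difference for activated Treg was -0.04, and the second probe set of the gene differed by -0.51 and -0.47. Insig2 was 8.70 and 8.75 in conventional T cells, 9.24, 9.46 and 9.45 in resting Treg, and 9.37, 9.15 and 9.48 in activated Treg. Every Treg array was above both conventional arrays, and the differences of 0.66 ± 0.17 and 0.61 ± 0.17 missed the threshold (limma adjusted p = 0.0629 and 0.0595). Both passed with the title code class as a block (0.73 and 0.76, limma adjusted p = 0.0201 and 0.0252).

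**Figure D2:**
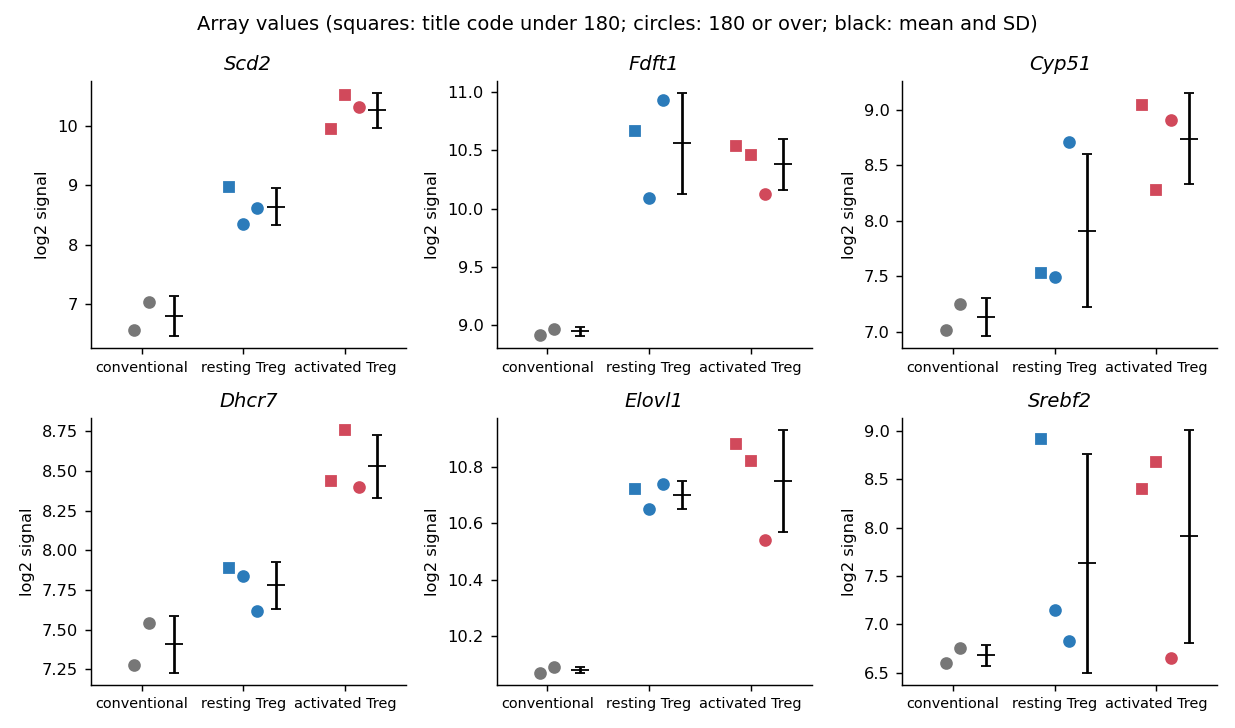
Log2 signal of 6 genes in each array of sorted T cells, with squares for arrays whose title code is under 180, circles for 180 or over, and the mean and SD of each group in black. Scd2 rises in 3 separate steps, Fdft1 and Elovl1 are higher in both Treg groups than in conventional T cells, and the squares of Srebf2 sit at 8.40 to 8.92 while its circles sit at 6.6 to 7.15.

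At the other end of the range, Elovl6, which elongates palmitate to stearate, had 7.70, 8.99 and 7.26 in resting Treg against 9.17 and 9.43 in conventional T cells. All 3 resting arrays were lower, and the difference of -1.32 ± 0.49 did not pass (limma adjusted p = 0.199), though without resting Treg 2 it did (-1.82, limma adjusted p = 0.0304). Acss2, which makes acetyl-CoA from acetate, was 9.84, 9.15 and 9.21 in activated Treg against 10.11 and 10.28 in conventional T cells, a difference of -0.79 ± 0.25 (limma adjusted p = 0.0933). It passed with the mean of its probe sets (-1.08, limma adjusted p = 0.00194). Scd1, the desaturase most like Scd2, stood at 4.93 and 5.07 in conventional T cells, 4.82, 4.93 and 4.84 in resting Treg, and 6.88, 4.89 and 5.33 in activated Treg. Only the activated array 1 stood apart, and its difference from resting Treg (0.84 ± 0.44) did not pass (limma adjusted p = 0.546). The remaining members of the 3 groups did not pass in any of these comparisons.

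In activated Treg against conventional cells, 3 of 11 fatty acid oxidation genes (27.3%) and 3 of 12 measured genes of sterol export, esterification and oxysterol response (25%) passed, beside 9.7% of all genes. In fatty acid oxidation the carnitine carrier Slc25a20 (1.13 ± 0.21) and Cpt2 (0.77 ± 0.19), the inner membrane carnitine palmitoyltransferase, rose and the medium-chain dehydrogenase gene Acadm (-1.93 ± 0.48) fell, with limma adjusted p of 0.0121, 0.0382 and 0.0412. Hadha, a subunit of the trifunctional protein of that pathway, was the 1 of 11 (9.09%, beside 5.51% of all genes) that passed in resting Treg against conventional cells (-0.95 ± 0.22, limma adjusted p = 0.043). In the sterol export list, Abca1, a cholesterol exporter, rose in activated Treg against conventional cells (1.92 ± 0.43, limma adjusted p = 0.0277). Mylip, which targets lipoprotein receptors for degradation, fell there (-1.32 ± 0.20, limma adjusted p = 0.00465). The phospholipid remodelling enzyme gene Lpcat3 fell in both comparisons with conventional cells (-0.82 ± 0.18 and -0.72 ± 0.18, limma adjusted p = 0.037 and 0.0396). Of 9 measured genes of the isoprenoid branches, which draw on farnesyl diphosphate for prenylation, ubiquinone and dolichol, none passed in the sorted cells.

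Myeloid and B cell markers were on average higher in Treg arrays, and the mean of markers of CD8 T cells and natural killer (NK) cells was lower. The mean log2 signal of 12 myeloid markers was 5.33 to 5.35 in conventional T cells, 5.66 to 6.31 in resting Treg and 5.98 to 6.95 in activated Treg, and that of 6 measured B cell markers was 5.65 to 5.79, 6.57 to 7.14 and 6.36 to 7.06. In resting Treg against conventional cells 1 of 12 myeloid markers (8.33%) and 3 of 6 B cell markers (50%) passed, beside 5.51% of all genes. All were higher. Among them were Cybb, a subunit of the phagocyte oxidase (2.54 ± 0.28), and Cd79b, of the B cell receptor (2.85 ± 0.48), with limma adjusted p of 0.0015 and 0.012. All 6 measured CD8 and NK markers had a negative difference there, and 1 passed (16.7%). Of 7 dendritic and MHC class II markers none passed, though 6 were positive. The part of such cells in the differences of the lipid genes was not tested.

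With Sema4a-Ig in place of IgG1, WT Treg had less RNA of Acaca and Idi1 and more of Elovl6. Acaca encodes acetyl-CoA carboxylase, the committed step of fatty acid synthesis, and Idi1 isomerises isopentenyl diphosphate. These were 3 of 33 members (9.09%), beside 5.79% of all genes, of which 2.91% were called higher and 2.88% lower. Most members (28 of 33) had above-median signal, so shares over all genes are not matched for signal, here or in KO. Among genes of above-median signal 9 of 28 members passed, and 1654 genes in all, against 990 without that filter. The members' share of calls in that set was above that of all genes. With pair differences centred on their median, 3 members rose and 2 fell: Acss2 and Elovl5 joined the calls. An unadjusted limma p under 0.05 was reached by 12 of 33 members (36.4%), beside 21.1% of all genes. The 9 that did not pass after adjustment were Cyp51, Sqle, Sc5d, Srebf2, Insig1, Fasn, Acacb, Acss2 and Elovl5, with limma adjusted p between 0.0548 and 0.235.

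Most sterol synthesis genes had small negative differences in WT. Of 16 measured, 13 had a mean difference below 0 (81.2%, against 53.9% of all genes), of which Lss and Dhcr7 round to 0.00. The median was -0.12 against -0.01 over all genes, with a range of -0.38 (Cyp51) to 0.16 (Ebp). All 5 measured sensing genes were negative (median -0.15). In fatty acid synthesis 6 of 12 were negative (median -0.05). With any 1 pair left out the 3 medians ran from -0.15 to -0.06, -0.21 to -0.04 and -0.10 to 0.00. Below 0 in all 8 WT pairs were 7 of 33 members (21.2%), beside 4.36% of all genes, a share not matched for signal. They were Idi1, Sqle and Cyp51 in sterol synthesis, Insig1 and Srebf2 in sensing, and Acaca and Fasn in fatty acid synthesis. Elovl6 alone was above 0 in all 8 (3.03%, beside 3.03% of all genes).

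In each WT pair Acaca was lower with Sema4a-Ig, with a lowest difference of -1.82, a median of -0.46 and a highest of -0.21. The lowest is replicate 1, and the next is -0.69 in replicate 3. The mean of -0.60 ± 0.12 passed (limma adjusted p = 0.00744) and kept its call in all 16 fits that left out 1 pair (-0.65 to -0.42). Its second probe set, with a mean signal of 4.20, differed by -0.26.

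Idi1 ranged from -0.87 (replicate 3) to -0.16 with a median of -0.22. Replicates 1 and 3 (-0.69 and -0.87) stood below the other 6, which lay between -0.35 and -0.16. The mean was -0.36 ± 0.08 (limma adjusted p = 0.0145), and both probe sets of the gene gave it (-0.36 and -0.35). Without WT replicate 3 the difference was -0.28 and missed the threshold (limma adjusted p = 0.0629), and it held in the other 15 of 16 such fits.

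Elovl6 ranged from 0.02 (replicate 6) to 0.93 (replicate 2) with a median of 0.48. All 3 of its probe sets were higher, by 0.47, 0.42 and 0.32. The mean of 0.47 ± 0.11 passed (limma adjusted p = 0.019) and was lost in 3 of 16 fits that left out 1 pair. These were the fits without WT replicate 2, the pair with the disagreeing genotype label (0.40, limma adjusted p = 0.0549), without WT replicate 3 (0.42, 0.0773) and without WT replicate 7 (0.45, 0.0544).

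Further along the sterol pathway, Cyp51 ranged from -1.12 to -0.06 in WT with a median of -0.22, and Sqle, squalene epoxidase, from -0.78 to -0.06 with a median of -0.30. In both genes replicate 3 was the lowest pair. Their means were -0.38 ± 0.12 and -0.36 ± 0.11 (limma adjusted p = 0.0631 and 0.0564). Srebf2 ranged from -0.72 to -0.04 (mean -0.25 ± 0.08, limma adjusted p = 0.0633), and its second probe set gave -0.23. Insig1, itself a target of SREBP, ranged from -0.90 to -0.02 (mean -0.28 ± 0.11, limma adjusted p = 0.145). Again replicate 3 was the lowest pair. Fasn, fatty acid synthase, ranged from -0.85 to -0.07 (mean -0.28 ± 0.09, limma adjusted p = 0.0576). Cyp51, Sqle and Fasn passed among genes of above-median signal, with the mean of probe sets, with an eBayes trend and without KO replicate 3 (for Cyp51 and Sqle limma adjusted p from 0.0255 to 0.0486). Srebf2 passed among genes of above-median signal, with an eBayes trend and with the Actb covariate (limma adjusted p from 0.0266 to 0.0497).

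Other enzymes of the route had differences near or above 0. Dhcr7 and Lss, lanosterol synthase, had mean differences of 0.00 in WT, and Ebp, the sterol isomerase, had 0.16 ± 0.09 (limma adjusted p = 0.325). Hmgcs1 had 0.04 ± 0.10, read by 1 probe set of low signal (mean 4.43). Acss2 ranged from -0.11 to 0.84 (mean 0.35 ± 0.11, limma adjusted p = 0.0562), and Elovl5, an elongase of polyunsaturated fatty acids, from -0.04 to 0.47 (mean 0.24 ± 0.07, limma adjusted p = 0.0548). Both were above 0 in most WT pairs. Scd1 was the most variable member, from -1.25 to 0.61 (SD 0.75, n = 8 pairs). Acacb, Fads2 and Me1 had mean signals of 3.52, 3.69 and 3.94, below the brightest nonspecific control, and they are included in the counts and medians above.

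**Figure D3:**
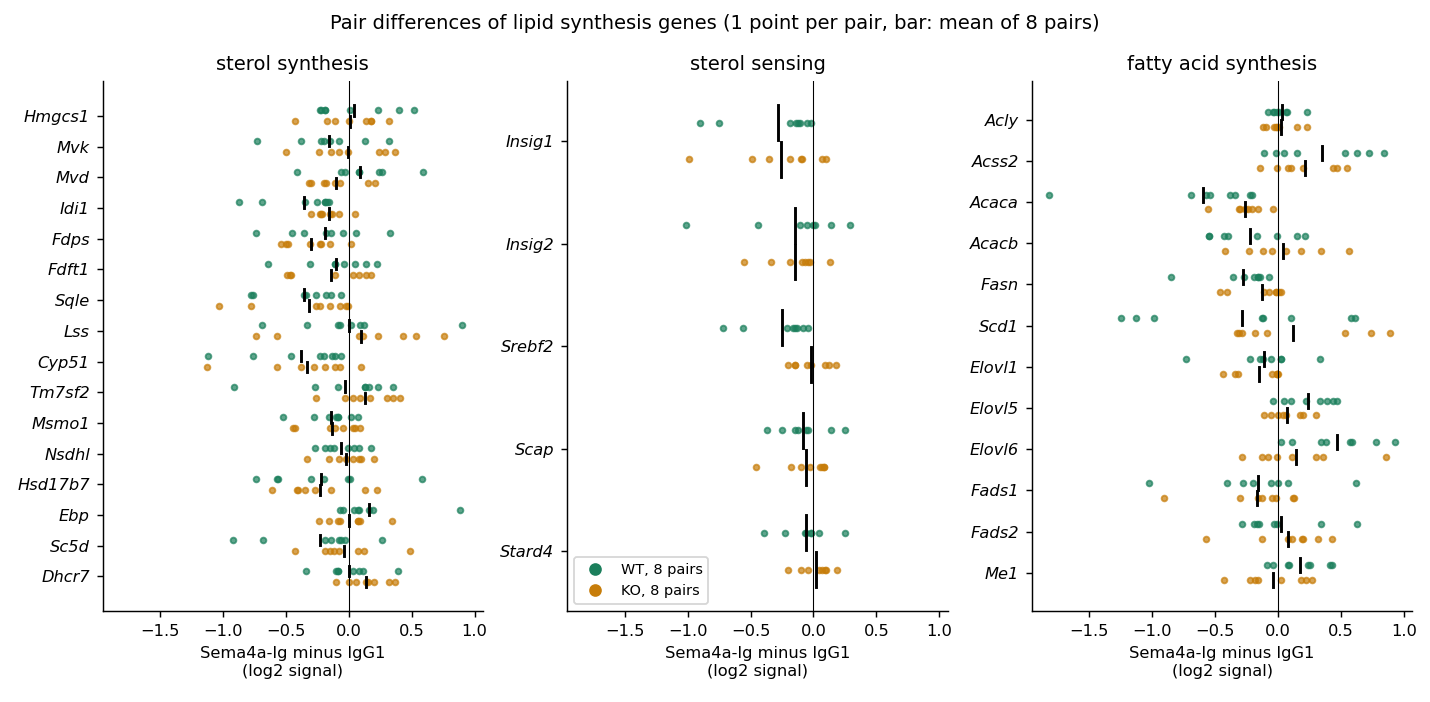
Sema4a-Ig minus IgG1 difference in log2 signal of the 33 measured lipid synthesis genes, with 1 point for each of 8 WT and 8 KO pairs and a black bar at each mean. Acaca in WT lies furthest to the left (mean -0.60, with replicate 1 at -1.82), Elovl6 in WT lies to the right of 0 in every pair, and the WT and KO points of Cyp51, Sqle and Insig1 overlap.

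In KO Treg no member passed, and neither did any gene of the 17097 (percent called 0). At an unadjusted limma p under 0.05 stood 5 of 33 members (15.2%), Fdps, Sqle, Cyp51, Insig1 and Acaca, all lower, beside 10.5% of all genes. Fdps makes farnesyl diphosphate, and its difference of -0.30 ± 0.10 had the smallest p among the members (limma adjusted p = 0.378). Sqle was below 0 in all 8 KO pairs, from -1.03 to -0.01 (mean -0.32 ± 0.11, limma adjusted p = 0.388). Cyp51 ranged from -1.13 to 0.10 (mean -0.33 ± 0.12, limma adjusted p = 0.409), with 7 of 8 pairs below 0. Acaca was below 0 in all 8, from -0.56 to -0.04 (mean -0.26 ± 0.12, limma adjusted p = 0.475). Sqle, Acaca and Elovl1 were the 3 of 33 members below 0 in all KO pairs (9.09%, beside 1.66% of all genes). Elovl1 ranged from -0.44 to just under 0, with a median of -0.03, so this sign count includes pairs with almost no difference. None was above 0 in all 8 (0.988% of all genes). Of 16 sterol synthesis genes 11 were negative (68.8%, against 55% of all genes; median -0.07 against -0.02). The median of fatty acid synthesis genes was 0.03.

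Whether the response depended on genotype was tested as the difference between the KO and WT means. No member passed, none had an unadjusted limma p under 0.05 (5.94% of all genes did), and no gene of the 17097 passed (percent called 0). For Acaca the difference was 0.34 (95% interval -0.02 to 0.70, limma adjusted p = 0.851), for Elovl6 -0.33 (-0.65 to 0.00, 0.83), for Srebf2 0.23 (0.00 to 0.47, 0.83) and for Idi1 0.20 (-0.04 to 0.44, 0.855). These intervals include 0 and also values as large as the WT response of each gene. For Cyp51 it was 0.06 (-0.30 to 0.42), for Sqle 0.04 (-0.28 to 0.36) and for Insig1 0.03 (-0.31 to 0.36). The largest were Scd1 (0.41 ± 0.27, limma adjusted p = 0.888) in fatty acid synthesis and Mvd, the mevalonate diphosphate decarboxylase gene (-0.20 ± 0.13, limma adjusted p = 0.886), with Idi1, in sterol synthesis. Stard4 had 0.08 ± 0.10 (limma adjusted p = 0.961), and -0.04 with the mean of its probe sets. Pairs of both genotypes with neighbouring title codes fell into 7 sets, and a fit with these as a block, chosen after the data were seen, also called no member and no gene. There 2 of 33 members (6.06%, beside 6.11% of all genes) had an unadjusted limma p under 0.05, Elovl6 (-0.33, limma adjusted p = 0.811) and Scd1 (0.41, limma adjusted p = 0.812), and Acaca had 0.34 (-0.05 to 0.73, limma adjusted p = 0.818). A call in WT and none in KO is thus not shown to be a difference between genotypes.

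The size of these differences varied between pairs. The median sterol synthesis gene was lowest in replicate 3 of both genotypes (-0.35 in WT, with 14 of 16 genes below 0, and -0.29 in KO, with 12 of 16). In WT it was -0.26 in replicate 2, 0.10 in replicate 1 and between -0.12 and -0.06 in replicates 4 to 8. In KO it was -0.22 in replicate 2, -0.19 in replicate 1, and between -0.10 and 0.07 in the other 5. The 5 sensing genes had a median of -0.72 in WT replicate 3 and between -0.13 and -0.02 in the other WT pairs. Without replicate 3 of both genotypes, an alternative chosen after the data were seen, Acaca (-0.58), Idi1 (-0.28) and Elovl6 (0.42) kept their calls in WT, with limma adjusted p of 0.0235, 0.0464 and 0.0296. Without WT replicate 3 alone, Acaca kept its call and the others did not. Without KO replicate 3 alone, 8 members passed in WT, where 1328 of all genes were called, beside 990 with all pairs.

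**Figure D4:**
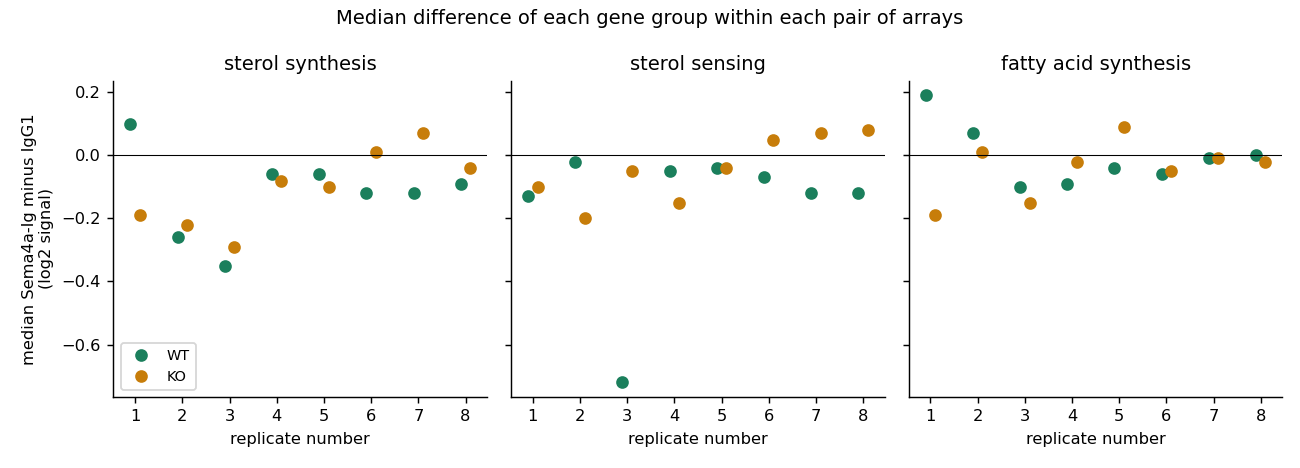
Median Sema4a-Ig minus IgG1 difference (log2 signal) of the 16 sterol synthesis, 5 sterol sensing and 12 fatty acid synthesis genes within each pair of arrays, by replicate number, for WT and KO. The sterol synthesis median is lowest in replicate 3 of both genotypes (-0.35 and -0.29), and the sensing median reaches -0.72 in WT replicate 3.

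Genes that draw on or dispose of sterol intermediates moved in both directions in WT. Of 9 measured genes of the isoprenoid branches, 8 had a negative difference (88.9%, against 53.9% of all genes; median -0.16). Those that fell were 2 of 9 (22.2%), beside 2.88% of all genes called lower: Nus1, a subunit of the dolichol synthase (-0.38 ± 0.08, limma adjusted p = 0.00892), and Icmt, which methylates prenylated proteins (-0.47 ± 0.11, limma adjusted p = 0.0163). Nus1 ranged from -0.89 to -0.21 and Icmt from -1.27 to -0.04, so both were below 0 in all 8 WT pairs. In KO 8 of 9 were also negative (88.9%, against 55% of all genes; median -0.11), with Nus1 at -0.25 ± 0.08 (limma adjusted p = 0.378).

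Of 11 measured genes of sterol export, esterification and oxysterol response, 3 rose in WT (27.3%, beside 2.91% of all genes called higher). Abcg1, which exports cholesterol, ranged from -0.23 to 1.23 (mean 0.53 ± 0.12, limma adjusted p = 0.0111), with 7 of 8 pairs above 0. Mylip ranged from 0.05 to 0.90 (mean 0.43 ± 0.10, limma adjusted p = 0.0142). Npc2, which carries cholesterol out of lysosomes, ranged from 0.09 to 0.45 (mean 0.26 ± 0.07, limma adjusted p = 0.0276). In KO their means were 0.33, 0.01 and 0.08, and none passed (limma adjusted p from 0.389 to 0.98). The difference between genotypes was -0.42 ± 0.14 for Mylip (limma adjusted p = 0.748). None of 10 measured fatty acid oxidation genes passed in WT (median 0.03).

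Some myeloid markers also rose with Sema4a-Ig in WT. Of 12, Lyz2 (0.81 ± 0.15), Tyrobp (0.39 ± 0.11) and Ctss (0.37 ± 0.08) rose in WT with limma adjusted p of 0.00439, 0.0433 and 0.00849. These were 25% of the list, beside 2.91% of all genes called higher, and 9 of 12 were positive (75%, against 46.1% of all genes). The mean log2 signal of the 12 was 4.71 to 4.96 in WT IgG1 arrays and 4.84 to 5.09 in WT Sema4a-Ig arrays. In KO it was 4.82 to 4.94 in IgG1 arrays and 4.86 to 4.98 in Sema4a-Ig arrays. By pair the mean difference of the 12 ranged from -0.13 to 0.37 in WT and from -0.07 to 0.17 in KO. None of the 12 passed in KO and 6 were positive (50%, against 45% of all genes), and Ctss was above 0 in all 8 KO pairs. Of 6 measured B cell markers only Cd79b passed in WT (16.7%, beside 2.91% of all genes called higher), at 0.35 ± 0.09 (limma adjusted p = 0.0241). That list was split, with 3 markers positive and 3 negative (median 0.05). With the pairs' mean myeloid difference as a covariate, Acaca and Idi1 kept their calls and Elovl6 had 0.44 (limma adjusted p = 0.0523). That covariate was centred over all pairs of both genotypes. The fit therefore gives differences at the mean myeloid shift, not in its absence, and cannot remove a shift that the pairs share. The part of myeloid cells in these differences was not tested.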

How the data were processed

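The 40 arrays are Affymetrix chips of 2 types. The deposited values are log2 signals per probe set, made with RMA and Partek 6.6 per the submitters' processing notes (settings: not given in the sources used here). Ligand arrays were paired by neighbouring title codes. The deposited log2 values had equal means in all 16 pairs, which is where the pairing was checked, and differences within pairs were tested. Gene names came from the platform annotation and were updated through a RefSeq table: of 45101 and 45141 probe sets, 34958 and 28898 had 1 gene, 932 and 551 several and 9211 and 15692 none. Each gene took its 1-gene probe set with the highest mean. limma 3.58.1 in R 4.3.3 fitted 3 group means (5 residual degrees of freedom) or 1 mean per genotype over pair differences (14), two-sided, with Benjamini-Hochberg adjustment over all genes and a threshold of 0.05; the fits were tested on simulated data.

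No label ties replicates to separate mice or cultures. Every p-value therefore reflects spread among these arrays alone, and that spread may be technical. The number of arrays limits the precision. The bone marrow given as source of the sorted cells was not used. Members and lists were chosen with earlier results of these data known. Named are members that passed in any of 6 comparisons and the 2 largest differences of each group of genes in each comparison; others described were chosen after their values were seen. Promoter windows from RefSeq (GRCm38.p6) matched by symbol for 15 of 18, 5 of 6 and 10 of 13 members of the 3 groups. Alternatives were left-out arrays or pairs, a signal filter, the mean of probe sets, normalization, an eBayes trend, array weights, title code class, Actb signal, a myeloid covariate and no replicate block; leaving out replicate 3 of both genotypes together and blocking on title code sets were added after seeing the data.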

Additional observations from a re-analysis of the deposited data

Results flagged for a closer look

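Single pairs stood apart from the other 7 of their genotype in 5 of 66 groups of 8 pair differences tested (Dixon's criterion, which chance meets in about 1 in 20 groups). Acaca was -1.82 in WT replicate 1, with the others between -0.69 and -0.21. Ebp was 0.88 in the same pair, with the others between -0.07 and 0.19. In WT replicate 3 Fasn was -0.85, with the others between -0.36 and -0.07. Fads1 was -0.91 in KO replicate 3, with the others between -0.30 and 0.13. Acly, ATP citrate lyase, was 0.23 in WT replicate 2, with the others between -0.08 and 0.07.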

How the results depend on the processing

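Counts of called members moved most with the treatment of the arrays. For resting Treg against conventional cells (2 members) the count was 0 with the mean of probe sets, 7 with array weights and 0 to 3 with 1 array left out. For activated against resting Treg (1 member) it was 2 with quantile normalization, array weights or the Actb covariate, 3 with the title code class as a block, 0 with codes of 180 or over only and 0 to 1 with 1 array left out; with the mean of probe sets the 1 member was Acss2 (lower), not Scd2. For activated Treg against conventional cells (5 members) it was 14 with array weights, 1 with codes of 180 or over only and 1 to 5 with 1 array left out. For Sema4a-Ig in WT (3 members) it was 9 among genes of above-median signal, 7 with the mean of probe sets, 5 with median-centred differences, 8 with an eBayes trend, 6 with the Actb covariate and 1 to 8 with 1 pair left out (6 without WT replicate 5). Without the replicate block it was 15 in WT and 4 in KO, a fit that takes paired arrays as independent although their means had been equalised. In KO (otherwise 0) and for KO against WT (0) no other setting gave a call; with limma 5 and 0 members had an unadjusted p under 0.05. All genes called in WT numbered 990, and 4417 without the replicate block, 1654 among genes of above-median signal, 369 with the myeloid covariate and 258 without WT replicate 3. In the sorted cells array weights also raised the calls over all genes. They went from 1003 to 3005 for resting Treg against conventional cells and from 135 to 957 for activated against resting Treg. For activated Treg against conventional cells they went from 1765 to 5894. Signs turned for Cyp51 in resting Treg against conventional cells (0.00 with the mean of probe sets), Srebf2 there (-0.29 with the Actb covariate) and in activated Treg against conventional cells (-0.04 with the title code block, -0.02 with codes of 180 or over only, -0.60 with the Actb covariate), and Stard4 in KO against WT (-0.04 with the mean of probe sets). None of these 4 differences had passed the test. The causes were not tested. Of the values of named genes under all alternatives, 713 kept direction and side of the threshold, 43 lost it, 39 gained it and 6 turned.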
